A study of Mus musculus with 6 samples.

Results

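The transcripts of 46 genes that drive cell division were followed across 6 mouse molar libraries. The genes were chosen by symbol, for their known part in the cell cycle and in DNA replication, and all 46 were found among the 25899 gene symbols of the deposited table. All 46 had a mean of at least 1 RPM (a gene's reads scaled to the mapped reads of its library) and were therefore among the 14444 genes tested. By role they were 12 replication genes (the Mcm, Pcna, Rrm and Gins members), 4 other replication factors, 6 cell cycle regulators, 22 mitosis genes and the proliferation markers Mki67 and Top2a.

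RNA came from the apical dental mesenchyme of mandibular first molars at postnatal day 7.5, and the comparison concerns BMP signalling in tooth morphogenesis. The 3 mutants carried Gli1-CreER;Bmpr1afl/fl and the 3 littermate controls carried Bmpr1afl/fl, so both groups had the floxed alleles of the BMP receptor gene Bmpr1a. CreER is a recombinase that needs tamoxifen and is made here in Gli1-expressing cells, and neither its schedule nor whether the controls received it is given in the labels. All mice were on a mixed background (C57Bl6/129S6/SvEvTac). Controls 1 and 2 and mutants 1 and 2 were littermates (litter 1), and control 3 and mutant 3 formed litter 2. The labels do not say whether a library came from 1 animal or from pooled teeth, so p-values measure the spread between these libraries.

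A dividing cell first makes the proteins that copy DNA and later those that separate the chromosomes. The proteins Mcm2 to Mcm7 form the core of the helicase that opens the DNA, and the Gins proteins and Cdc45 complete it. Pcna is the sliding clamp of the polymerases, and the Rrm proteins supply deoxynucleotides. E2F factors switch this set on as cells leave G1. Cyclin B with Cdk1, the Aurora and Polo kinases, the spindle checkpoint and the kinesin motors act in mitosis, and their genes peak later, under the MuvB complexes and Foxm1. In the apical part of a growing molar, dividing mesenchyme cells extend the root.

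Some promoters of these genes carry the letters known for this timing, and 6 that do were picked as examples. The windows are those of RefSeq (GRCm38.p6), from 250 bases before to 50 bases after the transcription start, written 5′ to 3′ on the gene's strand. Capitals mark matches, on either strand, to TTTNNCGC (the E2F letters), TTTGAA (the core letters of the CHR element, bound by MuvB complexes) and CCAAT (bound by NF-Y). Adjoining and overlapping matches run together.
Mcm5 (chr8:75109259-75109558, plus strand): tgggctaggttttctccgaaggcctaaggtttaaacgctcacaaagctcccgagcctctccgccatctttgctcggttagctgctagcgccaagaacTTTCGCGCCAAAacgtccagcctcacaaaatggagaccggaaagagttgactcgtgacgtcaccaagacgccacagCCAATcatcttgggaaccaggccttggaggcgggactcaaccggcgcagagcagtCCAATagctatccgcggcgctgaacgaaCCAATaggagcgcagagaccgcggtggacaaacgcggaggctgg
Mcm6 (chr1:128359656-128359955, minus strand): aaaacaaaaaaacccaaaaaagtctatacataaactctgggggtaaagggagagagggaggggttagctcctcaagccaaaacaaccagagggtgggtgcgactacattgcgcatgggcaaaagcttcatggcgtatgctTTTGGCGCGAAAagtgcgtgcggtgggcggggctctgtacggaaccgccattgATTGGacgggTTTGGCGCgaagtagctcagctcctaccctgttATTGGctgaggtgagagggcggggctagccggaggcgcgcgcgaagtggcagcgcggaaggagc
Cdk1 (chr10:69352863-69353162, minus strand): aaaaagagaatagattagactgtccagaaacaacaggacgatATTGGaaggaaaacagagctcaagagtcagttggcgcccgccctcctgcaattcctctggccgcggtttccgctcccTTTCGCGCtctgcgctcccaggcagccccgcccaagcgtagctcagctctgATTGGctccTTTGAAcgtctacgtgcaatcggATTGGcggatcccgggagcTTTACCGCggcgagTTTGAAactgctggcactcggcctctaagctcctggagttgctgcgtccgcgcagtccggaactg
Ccnb2 (chr9:70421505-70421804, minus strand): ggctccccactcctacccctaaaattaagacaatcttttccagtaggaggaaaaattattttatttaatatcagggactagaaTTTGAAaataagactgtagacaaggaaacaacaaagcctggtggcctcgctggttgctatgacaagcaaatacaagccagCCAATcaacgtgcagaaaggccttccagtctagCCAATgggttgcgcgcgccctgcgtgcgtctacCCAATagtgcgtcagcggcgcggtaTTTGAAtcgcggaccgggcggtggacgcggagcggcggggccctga
Top2a (chr11:99024140-99024439, minus strand): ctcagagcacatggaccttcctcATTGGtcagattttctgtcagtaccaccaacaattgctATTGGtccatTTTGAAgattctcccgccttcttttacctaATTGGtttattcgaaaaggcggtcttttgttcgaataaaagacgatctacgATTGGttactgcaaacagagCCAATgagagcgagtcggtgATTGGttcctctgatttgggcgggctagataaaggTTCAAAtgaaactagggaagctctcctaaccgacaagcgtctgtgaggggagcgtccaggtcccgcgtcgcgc
Mki67 (chr7:135716330-135716629, minus strand): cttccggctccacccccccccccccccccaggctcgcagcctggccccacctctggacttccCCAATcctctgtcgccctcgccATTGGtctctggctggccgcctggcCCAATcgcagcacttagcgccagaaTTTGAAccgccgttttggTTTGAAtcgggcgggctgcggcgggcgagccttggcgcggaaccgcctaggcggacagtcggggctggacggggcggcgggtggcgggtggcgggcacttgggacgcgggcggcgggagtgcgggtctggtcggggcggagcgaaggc
The replication genes Mcm5 and Mcm6 held E2F letters and no CHR letters, while the mitotic cyclin Ccnb2 and the markers Top2a and Mki67 held CHR letters and no E2F letters. Cdk1 held both.

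A promoter window was found for 37 of the 46 members, and the same search was made over all 27025 genes with one. The E2F letters occurred in 4 of 9 replication genes (44.4%), 3 of 4 other replication factors and 2 of 19 mitosis genes (10.5%, Cdk1 and Espl1), against 5.93% of all genes. The CHR letters occurred in 14 of 19 mitosis genes (73.7%) and in 2 of 2 proliferation markers, against 20.2% of all genes. They also occurred in 1 of 9 replication genes (11.1%, Mcm2), 1 of 4 other replication factors (Cdc45, without E2F letters) and 1 of 3 regulators (E2f8). Neither was found in 11 of the 37 members, among them 4 of 9 replication genes, 5 of 19 mitosis genes and 2 of 3 regulators. Those with neither included Pcna, Rrm1, Rrm2, E2f1, Ccnb1 and Birc5. CCAAT was in 9 of 9 replication genes, 17 of 19 mitosis genes (89.5%), 1 of 4 other replication factors and 1 of 3 regulators (33.3%), against 41.1% of all genes. A match describes the letters of a window and is not a measured binding site.

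The libraries held 15916045 to 20609420 reads on genes. The members took 0.109% (control 2) to 0.198% (mutant 3) of these reads, and the lowest member count in any library was 56 reads, for Cdc6 in mutant 1. Controls 1, 2 and 3 held Bmpr1a at 121, 139 and 150 RPM and mutants 1, 2 and 3 at 108, 120 and 111 RPM. The groups did not overlap, as in 2.64% of all tested genes, but control 1 (121.0 RPM) and mutant 2 (120.2 RPM) lay close together. Exons outside the deletion, and cells that never expressed Gli1, could still give reads for this gene, which was not tested. The dental mesenchyme markers Msx1, Barx1, Lhx6, Nfic, Vim and Col1a1 were present in every library. Mutant 3 stood apart in 2 of 4 odontoblast markers: Dspp was at 113 RPM where the other 5 libraries held 817 to 6872 RPM, and Phex at 18.2 RPM where they held 113 to 725 RPM. The other 2, Dmp1 and Smpd3, lay within the range of the other libraries there.

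Per kb of exon, the most abundant members were Pcna, at a mean of 15.0 RPM per kb, and then the helicase subunit Mcm6. Ccnb2 (9.99 RPM per kb), Gins2 (9.92 RPM per kb) and Mcm4 (9.23 RPM per kb) followed. The lowest were Mcm10 (0.597 RPM per kb), which helps to start the fork, and Cdc6 (0.616 RPM per kb), which loads the helicase. Mki67, the gene of the Ki-67 antigen, was at 5.25 RPM per kb and Top2a, the topoisomerase that untangles sister chromatids, at 7.67 RPM per kb. In what follows RPM values are not divided by length and are compared only within a gene, with libraries in the order 1, 2, 3.

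Among the replication genes, Pcna was at 37.1, 30.9 and 36.5 RPM in controls and at 27.5, 39.8 and 43.7 RPM in mutants. The lowest and the highest library were both mutants, and the control values lay between them. Mcm2 was at 37.5, 24.9 and 35.0 RPM in controls and at 23.7, 35.6 and 45.9 RPM in mutants. Mcm5 was at 38.2, 22.7 and 30.3 RPM in controls and at 20.2, 32.8 and 46.8 RPM in mutants. Both helicase subunits had mutant 3 at the top, mutant 1 at the bottom and control 2 next to the bottom. Mcm6 repeated this order at the ends, from 37.0 RPM in mutant 1 and 47.8 RPM in control 2 to 75.6 RPM in mutant 3.

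Rrm1, the large subunit of ribonucleotide reductase, was at 71.5, 52.6 and 78.9 RPM in controls and at 55.1, 64.4 and 97.9 RPM in mutants. Its small subunit Rrm2 was at 18.7, 13.0 and 17.3 RPM in controls and at 12.3, 13.3 and 22.3 RPM in mutants. Both subunits were highest in mutant 3, and the groups overlapped in both. Gins2 was the replication gene with the narrowest range, with 41.5, 35.4 and 48.9 RPM for the controls, 35.0, 37.9 and 45.2 RPM for the mutants, and a ratio of 1.40 between its highest and lowest library. It was also the only member of the 46 that was highest in control 3. Mcm3 had the widest range of the 12, with a ratio of 2.44 between mutant 3 (45.8 RPM) and mutant 1 (18.8 RPM). Mcm4, Mcm7 and Gins1 were also highest in mutant 3, and Mcm10 was highest in control 1 (6.52 RPM) and lowest in control 2 (2.76 RPM).

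The 4 other replication factors were all highest in control 1 or mutant 3 and lowest in control 2 or mutant 1. Tyms, which makes thymidylate, was at 17.6, 10.8 and 19.2 RPM in the controls and at 10.3, 15.6 and 20.1 RPM in the mutants. Cdt1, the licensing factor, ran from 10.1 RPM in control 2 to 16.8 RPM in control 1, and Cdc45 from 3.87 RPM in mutant 1 to 7.90 RPM in control 1. Cdc6 was at 1.99 RPM in both control 2 and mutant 1 and at 4.64 RPM in control 1. In each of these factors the controls and mutants overlapped.

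Of the regulators, E2f1, an activator of the replication genes, was at 14.6, 7.90 and 11.2 RPM in controls and at 7.07, 13.9 and 15.1 RPM in mutants. Foxm1, which drives the mitotic genes, was at 28.7, 17.0 and 20.9 RPM in controls and at 16.7, 19.9 and 27.8 RPM in mutants. In both genes mutant 1 was the lowest library and control 2 was within 1 RPM of it. The repressor E2f8 and cyclin A2 (Ccna2) had control 1 and mutant 3 as their highest libraries, at 7.80 and 7.79 RPM for E2f8 and 46.9 and 45.7 RPM for Ccna2. Ccne2, a cyclin of S-phase entry, differed in that mutant 3 (10.9 RPM) lay below control 3 (13.2 RPM), and its highest library was control 1.

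Among the mitosis genes, Cdk1 was at 30.9, 18.8 and 27.8 RPM in controls and at 16.9, 26.1 and 37.8 RPM in mutants. Its partner Ccnb1 was at 11.2, 6.19 and 7.59 RPM in controls and at 6.25, 7.15 and 12.9 RPM in mutants. Cyclin B1 and its kinase were thus both highest in mutant 3, with control 1 next. Plk1, the Polo kinase, ran from 5.77 RPM in control 2 to 13.6 RPM in mutant 3. Ttk, a spindle checkpoint kinase, had the widest range of the 22, from 3.08 RPM in control 2 to 7.46 RPM in mutant 3 (ratio 2.42). Cenpa, the centromeric histone, had the narrowest, with 30.3, 26.2 and 26.4 RPM in controls and 23.3, 31.4 and 29.1 RPM in mutants (ratio 1.34).

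The other 17 mitosis genes were highest in control 1 or mutant 3 and lowest in control 2 or mutant 1. They comprised the Aurora kinases and passenger subunits (Aurka, Aurkb, Birc5, Cdca8), checkpoint and anaphase genes (Bub1, Bub1b, Cdc20, Espl1), Ccnb2, kinetochore genes (Cenpe, Cenpf) and motors and spindle genes (Kif11, Kif20a, Kif23, Tpx2, Nusap1, Prc1). Aurkb, the kinase of the passenger complex, ran from 7.64 RPM in mutant 1 to 17.9 RPM in mutant 3. Bub1 was the only mitosis gene lower in mutant 3 (8.05 RPM) than in control 3 (8.93 RPM). Mki67 was at 71.8, 32.2 and 42.1 RPM in controls and at 46.5, 50.9 and 73.5 RPM in mutants. Top2a was at 87.9, 49.6 and 72.7 RPM in controls and at 51.2, 57.1 and 96.4 RPM in mutants. The lowest library of both markers was a control, and the highest was mutant 3.

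**Figure D1:**
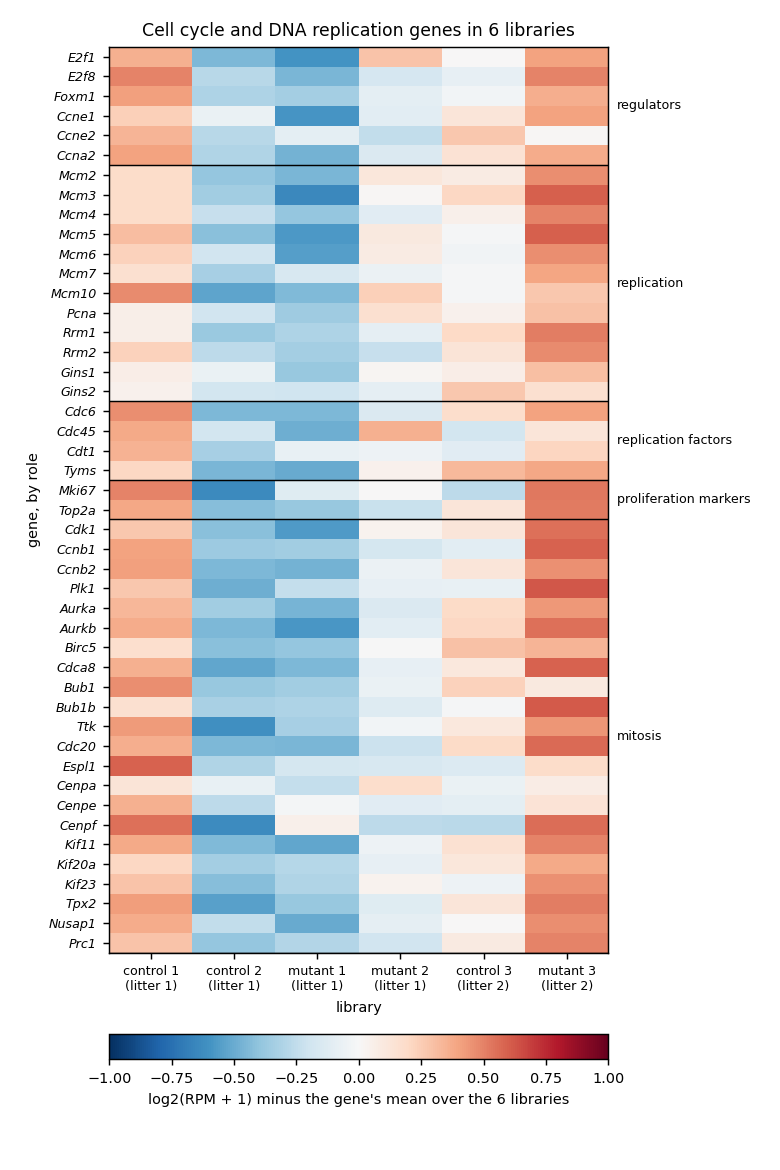
Deviation of each of the 46 members from its own 6-library mean, in log2(RPM + 1), by library (columns) and role (blocks of rows). As deposited, control 1 and mutant 3 are mostly the high columns and control 2 and mutant 1 the low ones. Control 1 and mutant 3 are the top 2 libraries in 8 of 12 replication genes and 19 of 22 mitosis genes.

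Counted over all 46 members, the highest library was mutant 3 for 33, control 1 for 11, and control 3 (Gins2) and mutant 2 (Cenpa) for 1 each. The lowest library was mutant 1 for 25 and control 2 for 21. Control 1 was above control 2 in 46 of 46, and in 57.3% of all tested genes. Thus 44 of 46 members were highest in control 1 or mutant 3 and lowest in control 2 or mutant 1, a combination that held for 26.6% of all tested genes. The pairs of libraries were read off the members' own values, so these counts describe the pattern and test nothing. Without mutant 3, 39 of 46 were highest in control 1 and lowest in control 2 or mutant 1, beside 14.1% of all tested genes. Each of these pairs holds 1 control and 1 mutant. The median ratio between the highest and lowest library was 1.99 over the members and 1.58 over all tested genes. In bulk RNA, fewer dividing cells and less of these transcripts per cell cannot be told apart.

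The genotype comparison asked whether deletion of Bmpr1a in Gli1-expressing cells came with other levels of these genes. The main fit held genotype alone, so its SEs and intervals include any spread between litters. No member passed the test: 0 of 46 had an adjusted p under 0.05 (limma with Benjamini-Hochberg over the 14444 genes), beside 0.0% of all tested genes. At an unadjusted p under 0.05 the count was 0 of 46, beside 1.05% of all tested genes, and limma voom on whole reads also gave 0 of 46 at both thresholds. With litter as a block in the limma fit, it was again 0 of 46 at an unadjusted p under 0.05, beside 2.03% of all tested genes. The groups overlapped in all 46 members, whereas they did not overlap in 2.64% of all tested genes. Changes are differences of mean log2(RPM + 1), mutants less controls, and were above 0 for 22 and below 0 for 24 members. Their median was -0.0038, against -0.013 over all tested genes.

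By role, 6 of 12 replication genes were above 0 (median 0.020), as were 13 of 22 mitosis genes (median 0.0064), 1 of 4 other replication factors (median -0.031) and 1 of 6 regulators (median -0.13). The largest positive value was that of Mki67, with a control mean of 48.7 ± 20.6 RPM and a mutant mean of 57.0 ± 14.5 RPM (± SD; each group has n = 3). Its log2 change was 0.27 (SE 0.31, 95% interval -0.46 to 1.00), with an unadjusted p of 0.407 by limma. The value was 0.59 without control 1, 0.02 without control 2 and 0.08 without mutant 3, and 0.21 to 0.40 without any one of the others. The most negative was that of Ccne2, at -0.22 (SE 0.21, interval -0.72 to 0.28) with an unadjusted p of 0.331 by limma. Both intervals include 0, and the median SE over the members was 0.27.

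Top2a had means of 70.0 ± 19.3 RPM (controls) and 68.3 ± 24.6 RPM (mutants), a log2 change of -0.05 (limma, unadjusted p 0.859). Pcna was at 34.8 ± 3.41 and 37.0 ± 8.45 RPM, with a change of 0.06 (limma, unadjusted p 0.763). Mcm2 had means of 32.4 ± 6.65 and 35.1 ± 11.1 RPM, with a change of 0.08 (limma, unadjusted p 0.770). Mcm5 had means of 30.4 ± 7.76 and 33.2 ± 13.3 RPM, with a change of 0.08 (limma, unadjusted p 0.814). In each of these 4 genes the difference of the means was smaller than either group's SD. The remaining values by limma were -0.07 for Rrm2 (unadjusted p 0.804), 0.04 for Ccnb1 (0.899), 0.02 for Cdk1 (0.961), 0.06 for E2f1 (0.850) and -0.05 for Foxm1 (0.859). The smallest adjusted p of any member was 1.00 (limma with Benjamini-Hochberg). These data do not show that the levels were equal: the 95% intervals of the members together reached from -0.89 to 1.03.

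**Figure D2:**
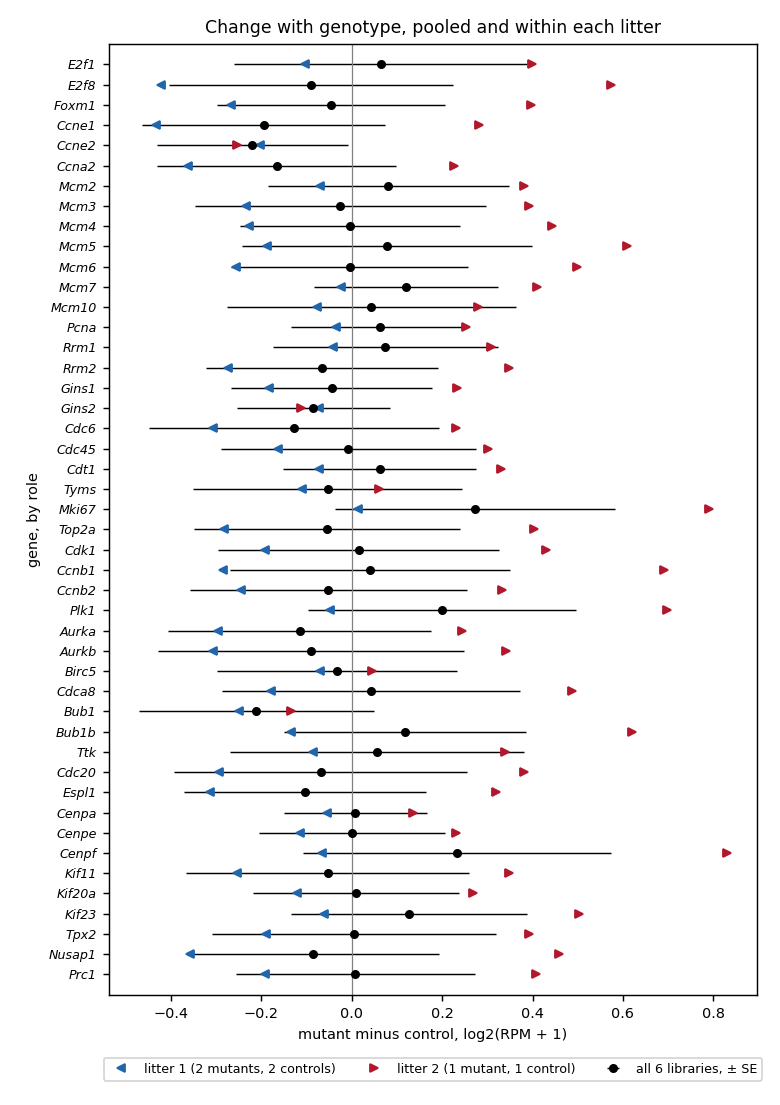
Genotype change of each member (mutant minus control, log2(RPM + 1)) with its SE from limma (bars), and the change within litter 1 and litter 2 (triangles). The pooled values lie between -0.22 and 0.27, and the within-litter values lie mostly below 0 in litter 1 and above 0 in litter 2.

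Within litters the values went in different directions. In litter 1, with 2 libraries per genotype, 45 of 46 members were lower in the mutants (median -0.19), where 67.7% of all tested genes were lower (median -0.077). The exception was Mki67, at 0.01. These values compare means of 2 libraries, and the single libraries of litter 1 were not all ordered that way. Control 2 was the lowest library of all in 21 members. Cdk1 was at 18.8 RPM in control 2 and 26.1 RPM in mutant 2, and Mcm5 at 22.7 and 32.8 RPM. In litter 2, with 1 library per genotype, 43 of 46 members were higher in the mutant (median 0.35), where 68.0% of all tested genes were higher (median 0.12), the exceptions being Ccne2, Gins2 and Bub1. For Ccnb1 the values were -0.28 in litter 1 and 0.69 in litter 2, for Mcm5 -0.19 and 0.61, and for Cdk1 -0.19 and 0.43. The members vary together, so these counts are not separate observations of a genotype effect.

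The difference between litters was itself tested, as the genotype change in litter 2 minus that in litter 1. It was positive for 44 of 46 members, and for 71.0% of all tested genes, with a median of 0.59 against 0.19 over all tested genes. None passed: 0 of 46 had an adjusted p under 0.05 (limma with Benjamini-Hochberg), beside 0.0% of all tested genes, and 0 of 46 an unadjusted p under 0.05, beside 5.06%. The smallest unadjusted p by limma was 0.0997, for the checkpoint gene Bub1b (adjusted p 0.910 by limma with Benjamini-Hochberg). The value depended on the litter 1 controls: without control 1 the members' median was 0.21, against 0.16 over all tested genes, and without control 2 it was 0.93, against 0.22. In litter 2 it rests on control 3 and mutant 3 alone, and it could not be fitted without either. With median-of-ratios scaling, which moved the median of all genes to -0.020, the members' median was 0.36. Relative to all genes, the median was 0.39 as deposited and 0.38 under that scaling.

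Litter 2 was compared with litter 1 with genotype in the fit. The members were higher in litter 2 in 45 of 46 cases (exception Cdc45, -0.05), beside 46.5% of all tested genes, with a median of 0.39 against -0.030 over all tested genes. The median was 0.37 for the replication genes and 0.42 for the mitosis genes. No member passed the adjusted threshold (0 of 46, limma with Benjamini-Hochberg), beside 0.872% of all tested genes. At an unadjusted p under 0.05 there were 2 of 46, Rrm1 and Gins2, beside 20.9% of all tested genes, so this count is no result about the members. Rrm1 was higher by 0.53 (SE 0.17, 95% interval 0.11 to 0.95), with an unadjusted p of 0.0201 and an adjusted p of 0.170 (limma with Benjamini-Hochberg). Gins2 was higher by 0.32 (SE 0.13; limma with Benjamini-Hochberg, unadjusted p 0.0396, adjusted p 0.218).

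The next 3 by p were Mcm3 (0.60, SE 0.26, unadjusted p 0.0595 by limma), Birc5 (0.48, SE 0.22, unadjusted p 0.0675) and Tyms (0.53, SE 0.25, unadjusted p 0.0695). These 5 genes were picked by p, so a change that is large beside its SE is built into the choice. The direction is not, and 45 of 46 members were higher in litter 2. Leaving out single libraries gave 0.29 (without mutant 3) to 0.92 (without control 3) for Mcm3, and 0.42 without mutant 1. It gave 0.36 (without mutant 3) to 0.71 (without control 3) for Rrm1, 0.27 to 0.37 for Gins2, 0.36 to 0.61 for Birc5 and 0.41 to 0.69 for Tyms. The members' median depended on mutant 3, the litter 2 library with the highest level in 33 members: without it the median was 0.096, against -0.13 over all tested genes. Without control 3 it was 0.69. The count at an unadjusted p under 0.05 also depended on single libraries. Without control 1 it was 31 of 46 (67.4%), beside 19.7% of all tested genes, and without control 3 it was 6 of 46 (13.0%), beside 9.65%. It was 2 without mutant 1 (beside 29.4%), 1 without mutant 2 (14.3%), 0 without control 2 (12.1%) and 0 without mutant 3 (16.7%).

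Replication and mitosis genes were set against each other within each library. The mean deviation of the 12 replication genes from their 6-library means was 0.18, -0.29 and 0.08 in controls and -0.40, 0.01 and 0.42 in mutants, on the log2(RPM + 1) scale. For the 22 mitosis genes it was 0.34, -0.40 and 0.06 in controls and -0.35, -0.09 and 0.44 in mutants. As deposited, both sets were thus high in control 1 and mutant 3 and low in control 2 and mutant 1, with control 3 and mutant 2 between. Median-of-ratios scaling moved the median of all tested genes by -0.084 in control 1 and by 0.094 in control 3. The order of these libraries in the replication genes (0.18 and 0.08) may therefore depend on the scaling. Replication minus mitosis was -0.16, 0.11 and 0.03 in controls and -0.05, 0.10 and -0.02 in mutants. The group means of this difference were -0.0084 ± 0.139 and 0.0084 ± 0.0798, so they lay closer together than the spread within either group.

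**Figure D3:**
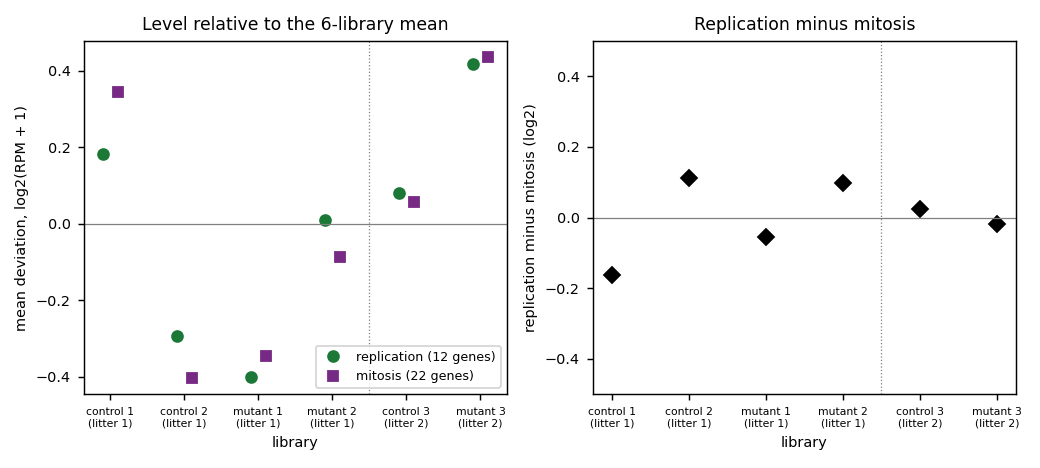
Mean deviation of the 12 replication genes and of the 22 mitosis genes in each library, in log2(RPM + 1) (left), and their difference (right); a dotted line separates the litters. The points of both sets run together from control 2 and mutant 1 up to control 1 and mutant 3, and mutants and controls are mixed along that run.

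The libraries at the ends were counted for each set. Of the 12 replication genes, 9 were lowest in mutant 1 and 3 in control 2, while of the 22 mitosis genes 8 were lowest in mutant 1 and 14 in control 2. Mutant 3 was the highest library for 10 of 12 replication genes and 18 of 22 mitosis genes. The median ratio of the highest to the lowest library was 1.87 for replication and 2.03 for mitosis genes. Control 1 exceeded control 2 by a median ratio of 1.39 in replication genes and 1.81 in mitosis genes. These are descriptions of 6 libraries, and the difference between the sets was not tested.

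Other genes of the same processes, which are not members, were counted in the same fits. Of 44 further replication genes, among them origin recognition, polymerase and clamp loader subunits, 19 were above and 25 below 0 between genotypes (median -0.0075), and 0 had an unadjusted p under 0.05 by limma. Of 50 further mitosis genes, among them kinetochore, condensin and kinesin genes, 26 were above and 24 below 0 (median 0.0093), again with 0. The background at that threshold is the 1.05% of all tested genes. The groups did not overlap in 1 of these 50, beside 2.64% of all tested genes, so this count is no result about the list. The gene was Cenpk, of the kinetochore, which is named after its values were seen. Cenpk was at 2.90, 2.62 and 2.86 RPM in the controls and at 1.95, 2.26 and 2.51 RPM in the mutants (log2 change -0.23, SE 0.18; limma, unadjusted p 0.242). Of 28 G1 and arrest genes, 15 were above and 13 below 0 (median 0.014), with 0 at an unadjusted p under 0.05.

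The order of the libraries was counted in these lists too. Highest in control 1 or mutant 3 and lowest in control 2 or mutant 1 were 34 of 44 further replication genes (77.3%), 43 of 50 further mitosis genes (86.0%) and 10 of 28 G1 and arrest genes (35.7%). The share over all tested genes is the 26.6% given above. In litter 2, 39 of the 44 replication genes were higher than in litter 1 (median 0.20), 46 of the 50 mitosis genes (median 0.27) and 14 of the 28 G1 and arrest genes (median 0.016), beside the 46.5% of all tested genes. The counts at an unadjusted p under 0.05 by limma were 1, 4 and 8, beside the 20.9% of all tested genes.

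Markers of other cell types also differed between the libraries at the ends of this order. The odontoblast list (Dspp, Dmp1, Phex, Smpd3) had mean deviations of 0.14, 0.65 and 0.41 in controls and 0.56, 0.16 and -1.92 in mutants, on the log2(RPM + 1) scale. Its mean was lowest in mutant 3, where most members were highest, and highest in control 2 and mutant 1. The single genes did not share this order. Dspp and Phex were lowest in mutant 3 and highest in mutant 1. Smpd3 was lowest in mutant 1 (64.7 RPM) and at 168 RPM in mutant 3 and 155 RPM in control 2. Dmp1 was lowest in control 1 (5.33 RPM) and at 15.2 RPM in mutant 3 and 18.9 RPM in control 2. Its summed level was 1476 to 5517 RPM in controls and 314 to 7679 RPM in mutants. The osteoblast list ran at -0.77, 1.24 and 1.37 in controls and 0.02, -0.28 and -1.59 in mutants, with summed levels of 463 to 1351 and 174 to 1374 RPM. Control 1 and mutant 3, the high libraries of the members, had its lowest means. Bglap and Bglap2 were lowest in these libraries, while Ibsp and Spp1 were lowest in mutant 2. The part of these cell types in the members' pattern was not tested.

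The enamel epithelium list moved otherwise, at -0.88, -2.01 and 1.53 in controls and 1.91, -1.22 and 0.67 in mutants. Control 2 and mutant 1, both low in the members, had its lowest and highest mean. Its epithelial genes Krt14, Krt5, Epcam and Cdh1 were instead highest in mutant 3, as most members were, and lowest in control 2. Krt5 was at 2076 RPM in mutant 3 and 95.4 RPM in control 2, while the enamel protease gene Klk4 was lowest in mutant 3 (4.02 RPM). Its summed level was 2223 to 39213 RPM in controls and 5231 to 49434 RPM in mutants. The mean of the dental mesenchyme list lay between -0.31 (mutant 3) and 0.31 (control 2). Within it Col1a1, which odontoblasts and osteoblasts also express, was at 4871 RPM in mutant 3 and at 14403 to 28920 RPM in the other 5 libraries. The means of the endothelial, macrophage and glial lists stayed within 0.44 of 0 in every library, but single genes went further. In control 3, Csf1r (56.9 RPM) and Emr1 (11.8 RPM) were at their lowest and the osteoclast gene Acp5 (44.4 RPM) at its highest. Erythroid markers were highest in control 3 (2.12). Skeletal muscle markers summed to at most 0.788 RPM, and 0 of 3 reached a mean of 1 RPM.

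**Figure D4:**
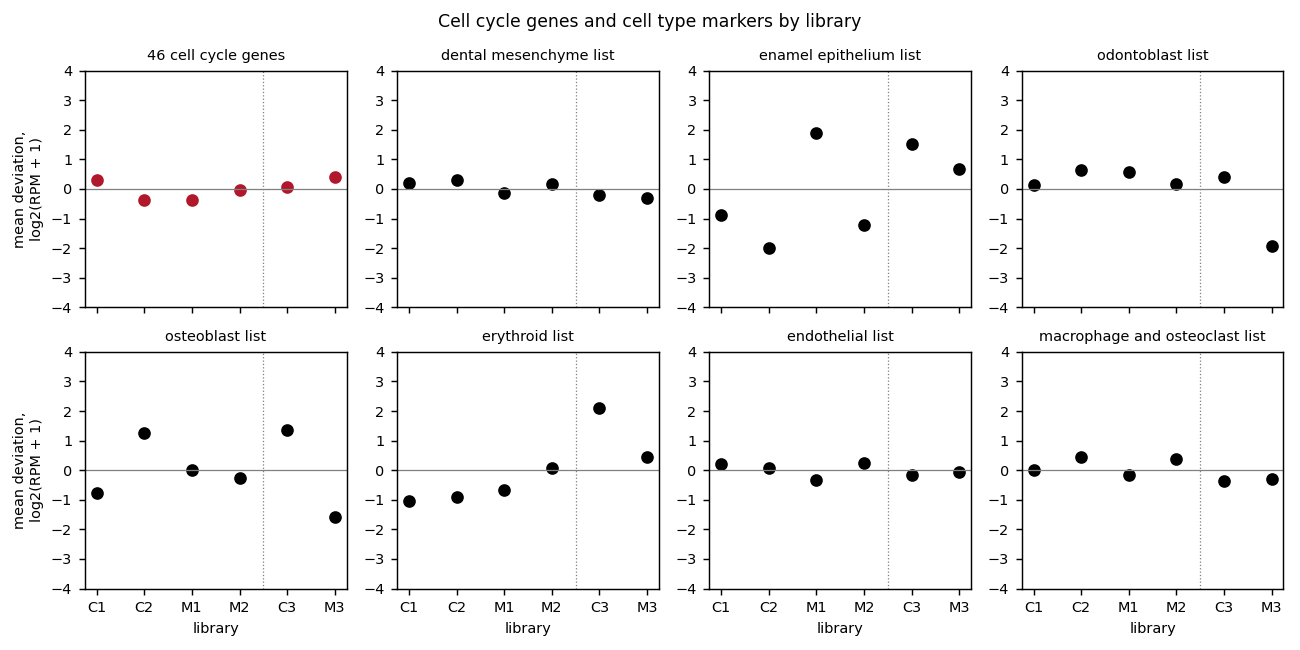
Mean deviation of the 46 members and of 7 cell type marker lists in each library (C control, M mutant), in log2(RPM + 1), with a dotted line between the litters. The means of the odontoblast and osteoblast lists are lowest in mutant 3 (-1.92 and -1.59), where Dspp, Phex, Bglap and Bglap2 are each at their lowest, and the members' mean is highest there (0.41).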

How the data were processed

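Per the labels' protocols, poly(A) libraries were read on an Illumina NextSeq. TopHat2 and the mm10 build are named per the submitters' processing notes. The counting program and the annotation are not given in the sources used here. The authors deposited log2 values in a table titled as normalized RPKM. Raised as powers of 2, 99.98% of values above each column's minimum were whole multiples of 1 step per column (within 0.05 read), shared by genes of all lengths. They were therefore read as log2 RPM, with the denominator inferred, and the minimum as 0.9 read. The design had assumed RPKM, and its test was applied to RPM instead.

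Groups came from the genotype labels. Genes whose mean reached 1 RPM entered a limma 3.58.1 fit (R 4.3.3) of log2(RPM + 1) (lmFit, eBayes with trend, two-sided, Benjamini-Hochberg over 14444 genes). The main genotype fit had no litter term, the litter fit also held genotype, and the fit of the difference between litters held both. Changes on this scale understate those of low genes. No libraries agreed within counting noise (chi-square per degree of freedom at least 22.3). Without molecular identifiers, reads need not be separate molecules. Levels per kb use GENCODE M21 exon unions. Of the members, 14 share exon sequence with another annotated gene, 12 on the opposite strand and 3 on the same strand, and the strand setting of the counting is not given in the sources used here, so their reads may be shared.

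The members and lists were chosen with earlier results of these data known. Named genotype tests were set for Mki67, Top2a, Pcna, Mcm2, Mcm5, Rrm2, Ccnb1, Cdk1, E2f1 and Foxm1, plus any member with an unadjusted p under 0.05 or groups that do not overlap. The ends of the range of changes, Mki67 and Ccne2, were added. For litters the 5 smallest p-values were named. Alternatives were other pseudocounts (0.1, 0.5), filters, scalings and eBayes settings, sample weights, litter or replicate number as a block, litter 1 alone, an enamel epithelium covariate, limma voom on whole reads and leaving out each library. Added after the data were seen were the deposited log2 values without a pseudocount, the alternatives for the difference between litters and the scalings and left-out libraries for the order of libraries.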

Additional observations from a re-analysis of the deposited data

Results flagged for a closer look

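Ccne1, the cyclin E1 gene of S-phase entry, had genotype changes of opposite sign in the litters. In litter 1, controls 1 and 2 held 9.18 and 7.27 RPM while mutants 1 and 2 held 4.76 and 7.02 RPM, so both mutants lay below both controls. In litter 2 it was at 8.40 RPM in control 3 and 10.4 RPM in mutant 3. The genotype change was -0.43 in litter 1 and 0.28 in litter 2 on the log2(RPM + 1) scale. The difference of 0.72 (SE 0.44) did not pass (limma with Benjamini-Hochberg: unadjusted p 0.157, adjusted p 0.910). Every library moving one way in litter 1 and the other way in litter 2 was seen in 1 of 46 members (2.17%) and in 18.2% of all tested genes.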

How the results depend on the processing

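For the members, 0 passed the adjusted threshold in every comparison and alternative run (limma with Benjamini-Hochberg). Between genotypes, 0 of 46 also had an unadjusted p under 0.05 in each, and the members' median ran from -0.19 to 0.011 (leave-one-out -0.24, without mutant 3, to 0.18, without mutant 1). The replication median ran from -0.19 to 0.25 and the mitosis median from -0.24 to 0.17 over left-out libraries. Of the named genes, sample weights (whose estimation stopped before convergence) reversed Mki67 (-0.089), Mcm5 (-0.043), Ccnb1 (-0.24) and Cdk1 (-0.070). Litter 1 alone reversed Pcna (-0.034), Mcm2 (-0.069), Mcm5 (-0.19), Ccnb1 (-0.28), Cdk1 (-0.19) and E2f1 (-0.10). Leave-one-out ranges that crossed 0 were Ccnb1 -0.24 to 0.25, Cdk1 -0.26 to 0.30, E2f1 -0.15 to 0.38, Foxm1 -0.24 to 0.15, Mcm2 -0.13 to 0.33, Mcm5 -0.20 to 0.39, Pcna -0.069 to 0.26, Rrm2 -0.32 to 0.088 and Top2a -0.33 to 0.13. The cause of these reversals was not tested.

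Between litters, 2 members had an unadjusted p under 0.05, beside 20.9% of all genes. The members' counts, each beside the share of all genes, were 10 with median-of-ratios (27.8%), 8 with upper-quartile (26.9%) and 14 with quantile scaling (26.1%), 1 without trend (20.6%), 6 with sample weights (32.0%), 5 with no covariate (24.6%) and 0 to 31 in leave-one-out fits (9.65% to 29.4%). The litter median over other alternatives was 0.39 to 0.52. For the genotype change in litter 2 minus litter 1, leave-one-out gave 0 to 9 members, the 9 without control 2 (7.05% of all genes there). Its median over left-out libraries was 0.21 to 0.93 for all members (main 0.59), 0.27 to 0.80 for replication (main 0.44) and 0.21 to 1.00 for mitosis (main 0.60), each highest without control 2. With median-of-ratios scaling these were 0.36, 0.23 and 0.38. This difference could not be fitted without control 3 or mutant 3. Replication minus mitosis, mutant minus control, was 0.0040 to 0.049 under other settings and -0.060 to 0.077 in leave-one-out. Under 3 other scalings, which moved a library's median by up to 0.13 (mutant 1), 40 to 41 members were highest in control 1 or mutant 3 and 44 lowest in control 2 or mutant 1, and in leave-one-out counts these were 39 to 45 and 41 to 46.

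Over all genes, the genotype count at an unadjusted p under 0.05 was 152, against 334 without a filter, 309 with sample weights, 293 with a litter term, 319 within litter 1, 391 with the enamel covariate and 68 (without mutant 1) to 325 (without control 1) in leave-one-out, where 1 gene passed adjustment without control 1. The adjusted litter count was 126, against 0 without a filter, with median-of-ratios or quantile scaling, voom or the enamel covariate, 1 with upper-quartile scaling, 204 with robust eBayes, 458 with no covariate, 1210 with sample weights and 0 (without mutant 2 or mutant 3) to 371 (without mutant 1) in leave-one-out. Its unadjusted count was 3026, against 4616 with sample weights and 1394 to 4248 in leave-one-out. For the difference between litters, 0 genes passed adjustment, against 120 without a filter and 0 to 309 in leave-one-out, and 731 were under an unadjusted 0.05, against 1312 and 616 to 1861.

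Replicate numbers are shared by the groups in the column names only. Same-numbered libraries deviated with correlations of -0.03, 0.75 and 0.50 across genes, so not every pair exceeded 0.1 and the numbers were not taken to pair them. With the replicate block, 0 members passed at either threshold and 524 of all genes had an unadjusted p under 0.05. With 3 libraries per genotype and 1 per genotype in litter 2, the members' median SE was 0.27. The 95% interval of each member's genotype change held 0 and values on both sides of it.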

Other observations

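Among the G1 and arrest genes, Cdkn1a, which encodes the Cdk inhibitor p21, is named here after its values were seen. It was at 317 RPM in control 3 and at 67.8 to 101 RPM in the other libraries. The log2 change was -0.64 between genotypes (SE 0.52; limma, unadjusted p 0.255) and 0.79 between litters (SE 0.48; limma, unadjusted p 0.148), so neither passed. The genotype change in litter 2 minus that in litter 1, which sets control 3 against mutant 3 (67.8 RPM), was -2.35 (SE 0.31; limma with Benjamini-Hochberg, unadjusted p 0.000254, adjusted p 0.501), so it did not pass adjustment. At an unadjusted p under 0.05 this difference held 3 of the 28 G1 and arrest genes, Cdkn1a, Cdkn2b and Btg2, beside 5.06% of all tested genes, and 0 with adjustment. Litter 2 has 1 library per genotype, so this rests on single libraries there. Control 3 was a middle library for the members, with a mean deviation of 0.06.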
